A study of Mus musculus with 9 samples.

Results

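The genes described here are 4 pairs in which a small imprinted gene lies inside an intron of a larger host gene, 8 genes of the 19371 that could be tested. The nested genes are *Zrsr1*, *Nap1l5*, *Mcts2* and *Nnat*, and their hosts are *Commd1*, *Herc3*, *H13* and *Blcap* in that order. They were chosen by name as known host and nested pairs, were matched by symbol to the Ensembl release 96 annotation (GENCODE mouse release 21, genome build GRCm38), and all 8 of 8 passed the filter on low counts. RNA was sequenced from 7 embryos and 2 adult mice, 1 animal per library, all on a mixed 129Sv/c57BL6J background. The Embryo group is Rathke's pouch, the epithelial fold that forms the anterior and intermediate lobes, dissected at e13.5 (embryonic day 13.5) from *Sox2* Egfp/+ animals, which carry a reporter in the progenitor gene *Sox2*. The Adult group is the pituitary at postnatal week 8 with its posterior lobe taken off, and no reporter allele is given for it. Age, the reporter allele and the tissue dissected differ together between the groups and cannot be told apart, and both sexes were used without being named per library. The embryo libraries held 16738863 to 28537311 read pairs on genes, and the adult libraries 36421545 and 31191117. The floor set at 3 read pairs lies at or below 0.220 CPM (the count scaled to a fixed library size with edgeR's TMM factors, which balance libraries of different makeup) and covers counting error only.

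In genomic imprinting a gene is transcribed mainly from the copy inherited from either the mother or the father, because DNA methylation placed in the egg or the sperm marks its control region. A retrogene arises when a spliced mRNA is copied back into DNA and inserted elsewhere, so that it usually has no introns, and several mouse retrogenes that landed in host introns became imprinted, with a promoter rich in CG pairs that is methylated on the maternal copy. Their hosts can be imprinted in some tissues only, or use different ends of the transcript on the maternal and paternal copies. The deposited counts are per gene and do not separate the parental copies or the transcripts of a gene.

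In the annotation each nested gene lay wholly within an intron of a coding transcript of its host, and 3 of the 4 were read from the strand opposite to the host. *Mcts2* alone carried the annotation's retrogene tag and was the only nested gene on the strand of its host. *Zrsr1*, *Nap1l5* and *Mcts2* each formed a single exon, whereas the exons of *Nnat* merged into 3, so that *Nnat* has introns and by this structure is a nested gene and not an intronless copy. The authors of the study refer to *Blcap* and *Nnat* as a gene and its retrogene, a class that exon structure alone does not decide. In each of the 3 pairs on opposite strands, the annotation also held a single non-coding host transcript that started at the nested gene. The *Commd1* transcript of this kind started inside *Zrsr1*, 854 bases after its start, the *Herc3* transcript 186 bases before the start of *Nap1l5*, and the *Blcap* transcript 71 bases before the start of *Nnat*.

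**Figure D1:**
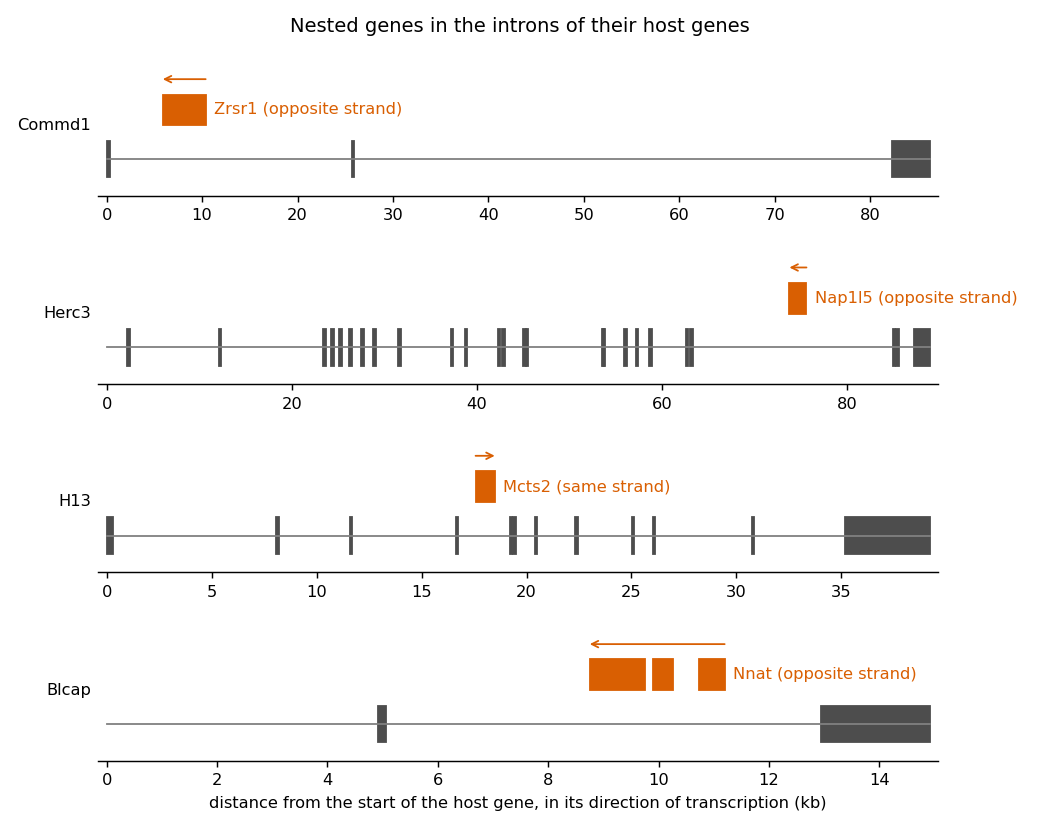
Map of the 4 pairs, with the distance from the start of the host gene in kb on the x axis, the exons of the longest protein-coding host transcript that spans the nested gene in grey and the nested gene's exons in orange, with an arrow for its direction. *Zrsr1*, *Nap1l5* and *Nnat* point against their hosts and *Mcts2* points with *H13*.

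The libraries of Embryo 1 and Embryo 4 stood apart from the other embryos. Genes took up 59.7% and 62.8% of their read pairs, while this share was 73.9% to 80.0% for the 5 further embryos, 84.0% for Adult 1 and 83.7% for Adult 2. The 5 markers of erythroid cells summed to 152600 and 190496 CPM in Embryo 1 and Embryo 4, and to between 5654 and 17548 CPM in the other embryos. Results are therefore also given without both libraries.

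Genes were tested between the stages with edgeR's quasi-likelihood test, and called when the Benjamini-Hochberg adjusted p was below 0.05 and the fold change above 4. All log2 fold changes are embryo over adult, so that negative values are higher in the adult. Of the 8 genes 6 were called, against 25.8% of all genes tested. *Zrsr1*, *Nap1l5* and *Herc3* were higher in the adult, a direction called for 14.6% of all genes, and *Mcts2*, *Nnat* and *Commd1* were higher in the embryo, as were 11.3% of all genes. *H13* and *Blcap* were not called. Without the threshold on fold change the count was again 6 of 8, beside 51.4% of all genes, and in 7 of the 8 the embryo and adult libraries did not overlap, beside 59.1% of all genes. Without Embryo 1 and Embryo 4 the count remained 6 of 8, beside 5401 of the 19508 genes then tested. Fewer cells of a type and less RNA per cell cannot be told apart in such bulk samples. Over all genes, a description and no set of replicates, the log2 fold change was lower for longer exonic length (Spearman rho -0.36), and each library was therefore also corrected for length and GC content, after which rho was 0.05. With that correction 3 of the 8 genes were called (*Zrsr1*, *Nap1l5* and *Commd1*), beside 21.8% of all genes. It moved the median log2 fold change of all genes tested from -0.04 to -0.17.

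**Figure D2:**
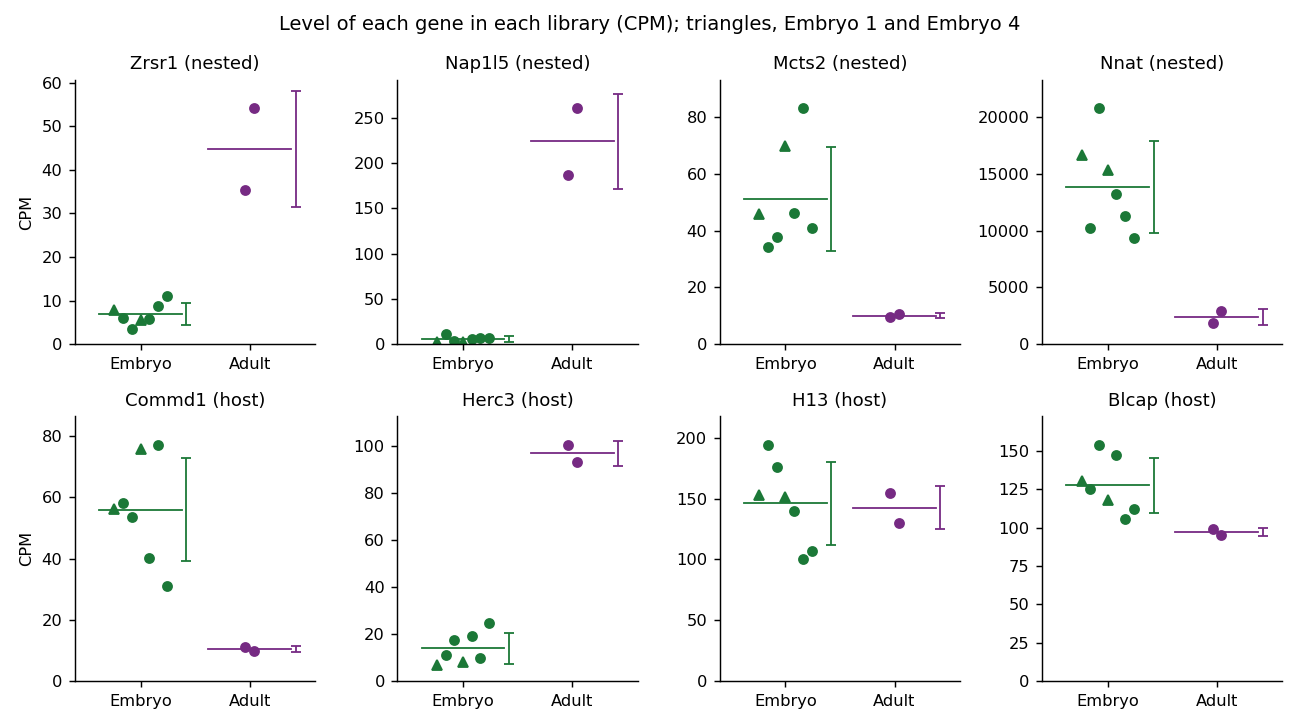
Level of each nested gene (top) and its host (bottom) in CPM on linear axes, 1 point per library, with the group mean as a line and the SD as a bar (n = 7 embryos, n = 2 adults). Triangles are Embryo 1 and Embryo 4, and the groups overlap only for *H13*.

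*Zrsr1* (ENSMUSG00000044068.7) encodes a protein related to the U2AF splicing factor, which recognises the 3' splice site, and is a copy of the X-linked gene *Zrsr2*. It lies on the forward strand of chromosome 11, 22972005 to 22976496, in intron 1 of 2 of *Commd1* (ENSMUSG00000051355.18, reverse strand, 22896136 to 22982382). The bases before each gene's start are shown because the pair moved in opposite directions from starts 10377 bases apart, with CG pairs in capitals, the letters at which imprinted promoters are methylated, here and in the sequences of the other pairs. They were taken from RefSeq promoter windows on GRCm38.p6, 5' to 3' on the strand of the gene, for *Zrsr1* at chr11:22971755-22972004 (forward strand) and for *Commd1* at chr11:22982383-22982534 (reverse strand), the second stopping at the annotated exon.
Zrsr1: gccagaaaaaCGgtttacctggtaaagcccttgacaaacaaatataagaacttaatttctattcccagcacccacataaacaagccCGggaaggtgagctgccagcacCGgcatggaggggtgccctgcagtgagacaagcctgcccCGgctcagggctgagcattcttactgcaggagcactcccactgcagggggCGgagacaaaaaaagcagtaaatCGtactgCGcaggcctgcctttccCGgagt
Commd1: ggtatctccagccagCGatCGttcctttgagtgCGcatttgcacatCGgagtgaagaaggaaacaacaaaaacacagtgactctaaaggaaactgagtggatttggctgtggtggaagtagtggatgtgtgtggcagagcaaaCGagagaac
The whole window of 300 bases at the start of *Zrsr1* held 10 CG pairs and that of *Commd1* 18, beside a median of 7 over the 32851 windows of all genes. A further *Commd1* window, at chr11:22972817-22973116 (reverse strand) inside *Zrsr1*, held 17.

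*Zrsr1* had a lowest value of 3.45 CPM (Embryo 3), a median of 6.08 and a highest of 11.2 CPM (Embryo 7) among the embryos, and 35.4 and 54.1 CPM in Adult 1 and Adult 2. Every embryo was below both adults. Embryos averaged 6.98 ± 2.51 CPM (SD, n = 7), adults 44.8 ± 13.3 CPM (SD, n = 2). This gave a log2 fold change of -2.68 (SE 0.34, edgeR quasi-likelihood test, adjusted p = 3.1e-05), which was -2.53 after the length and GC correction and -2.64 without Embryo 1 and Embryo 4. *Zrsr1* was thus 6.41-fold higher in the adult and was called in each of the 19 alternatives.

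*Commd1*, the host, encodes a COMM domain protein of the complex that recycles membrane proteins from endosomes and takes part in copper homeostasis. Its embryo values ran from 31.1 CPM (Embryo 7) through a median of 56.1 to 77.2 CPM (Embryo 6), and the adults had 11.1 and 9.75 CPM. All embryos were above both adults, the reverse of *Zrsr1*. With 56.0 ± 17.0 CPM (SD, n = 7) against 10.4 ± 0.970 CPM (SD, n = 2), the log2 fold change was 2.42 (SE 0.38, edgeR adjusted p = 1.8e-04), 2.98 with the length and GC correction and 2.33 without Embryo 1 and Embryo 4. Among the embryos, Embryo 7 had both the most *Zrsr1* and the least *Commd1*.

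Since the genes of a pair are counted in the same library, their ratio does not depend on the scaling between libraries. Divided by exonic length, *Zrsr1* was below *Commd1* in all 7 embryos, with log2 ratios of nested over host from -3.56 to -1.08 (median -2.74), and above it in both adults, with 2.07 and 2.88. The pair changed order between the stages. The mean log2 ratio was -2.62 ± 0.81 (SD, n = 7) in the embryo and 2.47 ± 0.57 (SD, n = 2) in the adult, a difference of -5.10 or 34.2-fold, -5.46 after the length and GC correction and -4.99 without Embryo 1 and Embryo 4. The ratios of the pairs are a description and were not tested.

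The exons of *Commd1* and *Zrsr1* share 412 bases on opposite strands, through the non-coding *Commd1* transcript that starts inside *Zrsr1*, so the strand of each read pair matters here. Counted on the strand of *Zrsr1*, Adult 1 and Adult 2 had 1461 and 1927 read pairs, and without regard to strand 1023 and 1304, because a pair over both genes is then given to neither. The read pairs lost from *Zrsr1*, 438 and 623, were close in number to those counted over *Commd1* exons on the opposite strand, 445 and 631. In the embryos the opposite-strand count at *Commd1* was 13 to 104 read pairs, with the highest in Embryo 7, where *Zrsr1* was also highest. On the strand of *Commd1* itself, the counts with and without strand differed by at most 5 read pairs in any library, and the unstranded counts gave the pair a ratio difference of -5.03.

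**Figure D3:**
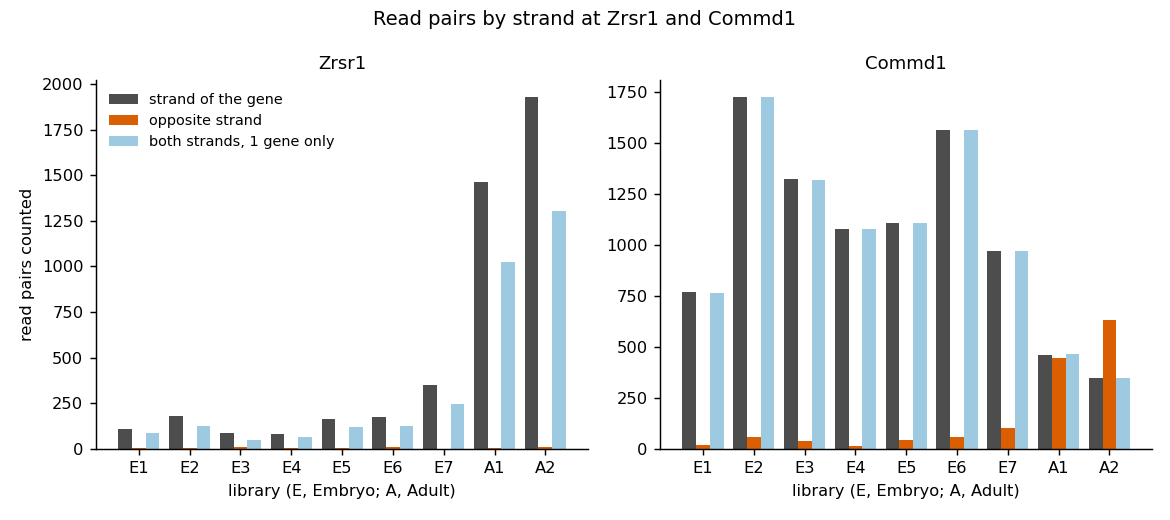
Read pairs counted at *Zrsr1* (left) and *Commd1* (right) in each library on the strand of the gene, on the opposite strand, and without regard to strand when a single gene is hit. In the adults the opposite-strand bars at *Commd1* reach 445 and 631 read pairs, and the unstranded bars at *Zrsr1* fall short of the stranded ones.

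*Nap1l5* (ENSMUSG00000055430.4) belongs to the nucleosome assembly proteins, histone chaperones that bind H2A and H2B, and lies on the reverse strand of chromosome 6, 58905233 to 58907076. *Herc3* (ENSMUSG00000029804.17, forward strand, 58831465 to 58920398) encodes a HECT-type ubiquitin ligase, and *Nap1l5* lies in its intron 22 of 24. Of the 12 annotated *Herc3* transcripts, 10 end before reaching *Nap1l5*. The sequences before RefSeq starts of both genes are given because this is the only pair with both genes called in the same direction, for *Nap1l5* at chr6:58907127-58907376 (reverse strand) and for *Herc3* at chr6:58833450-58833699 (forward strand), a start inside the annotated gene.
Nap1l5: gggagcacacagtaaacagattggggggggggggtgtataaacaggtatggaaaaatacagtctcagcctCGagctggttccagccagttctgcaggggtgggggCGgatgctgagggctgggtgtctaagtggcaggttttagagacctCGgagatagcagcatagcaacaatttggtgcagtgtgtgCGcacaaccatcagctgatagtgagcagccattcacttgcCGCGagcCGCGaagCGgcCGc
Herc3: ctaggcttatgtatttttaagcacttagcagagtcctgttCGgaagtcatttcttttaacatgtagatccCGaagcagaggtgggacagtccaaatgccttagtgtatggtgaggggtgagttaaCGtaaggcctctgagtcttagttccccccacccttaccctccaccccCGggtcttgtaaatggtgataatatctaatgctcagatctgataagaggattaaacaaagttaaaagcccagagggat
The 300-base window of *Nap1l5* held 17 CG pairs and that of *Herc3* held 4, the fewest among the windows of the 8 genes, with 68.6% and 31.4% of all windows holding fewer.

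*Nap1l5* had 1.90 CPM in Embryo 1, the lowest, a median of 6.01 CPM and 11.6 CPM in Embryo 2, the highest, and the adults had 187 and 261 CPM. The embryos lay far below the adults, and the count behind the lowest value was 26 read pairs. With means of 5.73 ± 3.35 CPM (SD, n = 7) and 224 ± 52.2 CPM (SD, n = 2), the log2 fold change was -5.27 (SE 0.44, edgeR adjusted p = 9.9e-07), a 38.7-fold higher level in the adult. It was -5.66 after the length and GC correction and -4.96 without Embryo 1 and Embryo 4. By mean CPM, *Nap1l5* ranked 11105 of the 19371 genes tested in the embryo and 416 in the adult.

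*Herc3* also had its lowest value in Embryo 1, with 6.95 CPM, a median of 10.8 CPM and its highest value in Embryo 7, with 24.6 CPM, and the adults had 100.4 and 93.0 CPM. No embryo reached the adult level. The means were 13.8 ± 6.55 CPM (SD, n = 7) and 96.7 ± 5.23 CPM (SD, n = 2), for a log2 fold change of -2.80 (SE 0.37, edgeR adjusted p = 3.9e-05), or -2.54 without Embryo 1 and Embryo 4. After the length and GC correction it was -1.87 (SE 0.33, adjusted p = 6.8e-04), short of the fold change of 4, and *Herc3* was then not called.

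Both genes were higher in the adult, *Nap1l5* by more. Per kb, the log2 ratio of *Nap1l5* over *Herc3* ran from 0.01 (Embryo 3) to 2.41 (Embryo 2) in the embryos, with a median of 0.65, and was 3.20 and 3.80 in the adults. The groups did not overlap, and per kb *Nap1l5* was at or above its host in every library. Without division by length, *Herc3* had more read pairs than *Nap1l5* in every embryo except Embryo 2. The log2 ratio then ran from -2.30 (Embryo 3) to 0.10 (Embryo 2), and was 0.90 and 1.49 in the adults. After the length and GC correction the ratio per kb in Embryo 3 was -0.39. The mean log2 ratio per kb was 0.95 ± 0.86 (SD, n = 7) in the embryo and 3.50 ± 0.42 (SD, n = 2) in the adult. The difference was -2.55 (5.87-fold), -2.41 without Embryo 1 and Embryo 4 and -3.98 after the length and GC correction. The highest embryo ratios were those of Embryo 2 and Embryo 6 (1.85), the embryos with the highest sums of the 8 neural markers, 502 and 319.5 CPM against 142 to 230.04 CPM in the other embryos and 385 and 401 CPM in the adults. Embryo 3, with the next highest embryo sum of these markers (230.04 CPM), had the lowest ratio (0.01). By group mean the most abundant of these markers was *Tubb3* in the embryos, though not in Embryo 5 and Embryo 7, and *Map2* in the adults, and whether neural tissue had a part in the ratio was not tested.

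*Mcts2* (ENSMUSG00000042814.8) is a retrocopy of the X-linked gene *Mcts1*, which encodes MCT-1, a partner of DENR in recycling ribosomes and restarting translation. It occupies chromosome 2, 152687035 to 152687946, in intron 4 of 11 of *H13* (ENSMUSG00000019188.16, 152669461 to 152708670), and both are on the forward strand. *H13* encodes signal peptide peptidase, a protease that cuts signal peptides within the membrane of the endoplasmic reticulum, and 2 of its 6 transcripts end before *Mcts2*. The sequence before the start of *Mcts2* is given because its window held the most CG pairs among the 8 genes, 25 in 300 bases, and it lies at chr2:152686898-152687034 (forward strand), up to the annotated exon.
Mcts2: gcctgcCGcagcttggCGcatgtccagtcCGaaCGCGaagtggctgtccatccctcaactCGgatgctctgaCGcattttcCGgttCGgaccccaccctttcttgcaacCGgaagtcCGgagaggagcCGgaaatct
The window of *H13* held 21 CG pairs, and the windows at the start sites of *Mcts1*, the gene that *Mcts2* was copied from, held 3 and 2. None of the 838 different stretches of 75 bases in the *Mcts2* transcript, the length of a read, occurred in a transcript of another gene, *Mcts1* included. The strand does not separate *Mcts2* from unspliced RNA of *H13*, which runs in the same direction.

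Among the embryos *Mcts2* ran from 34.4 CPM (Embryo 2) through a median of 45.9 to 83.1 CPM (Embryo 6), and it was 9.45 and 10.6 CPM in the adults. All embryos were above both adults. The means of 51.1 ± 18.2 CPM (SD, n = 7) and 10.0 ± 0.828 CPM (SD, n = 2) gave a log2 fold change of 2.35 (SE 0.39, edgeR adjusted p = 2.7e-04), and 2.29 without Embryo 1 and Embryo 4. *Mcts2* has the shortest exonic length of the 8 genes, 912 bases, and after the length and GC correction its log2 fold change was 0.98 (SE 0.23, adjusted p = 0.0036), below the fold change of 4. With the replicate number added to the fit as a block, and no correction, the log2 fold change was 1.99. This was just short of the fold change of 4, and *Mcts2* was again not called. Only the numbers 1 and 2 occur in both groups, so that fit compares the stages through Embryo 1 and Embryo 2 alone.

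*H13* ran from 100.2 CPM (Embryo 6) through a median of 152 to 194 CPM (Embryo 2) in the embryos and was 155 and 129.8 CPM in the adults. Both adults lay within the range of the embryos. With 146 ± 34.2 CPM (SD, n = 7) and 142 ± 17.7 CPM (SD, n = 2) the log2 fold change was 0.04 (SE 0.28, edgeR adjusted p = 0.923), which does not show that the levels were equal. It was 0.47 after the length and GC correction, -0.19 with libraries scaled by size alone, 0.03 without Embryo 1 and Embryo 4, and -0.04 and -0.10 when Embryo 2 or Adult 2 was left out.

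Embryo 6 had the most *Mcts2* and the least *H13*, and Embryo 2 the least *Mcts2* and the most *H13*. The log2 ratio of *Mcts2* over *H13* per kb accordingly ran from 0.79 in Embryo 2 to 3.01 in Embryo 6, with a median of 1.69, and was -0.75 and -0.33 in the adults. Per kb, *Mcts2* was above its host in all 7 embryos and below it in both adults. This change of order depends on the division by exonic length. By read pairs alone, *H13* exceeded *Mcts2* in every library. The undivided log2 ratio lay between -2.50 (Embryo 2) and -0.27 (Embryo 6) for embryos, with -4.03 for Adult 1 and -3.61 for Adult 2. The means per kb were 1.74 ± 0.73 (SD, n = 7) and -0.54 ± 0.30 (SD, n = 2), a difference of 2.28 (4.84-fold) that was 2.23 without Embryo 1 and Embryo 4. After the length and GC correction the difference was 0.50 and the groups overlapped, with adults at 0.66 and 1.02. The embryos then ran from 0.72 to 1.95, with Embryo 3 lowest and Embryo 7 highest in place of Embryo 2 and Embryo 6.

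*Nnat* (ENSMUSG00000067786.16) encodes neuronatin, a small protein of the endoplasmic reticulum membrane that affects calcium stores and is abundant in developing brain and in endocrine cells. It lies on the forward strand of chromosome 2, 157560078 to 157562522, in the only intron of the longest coding transcript of *Blcap* (ENSMUSG00000067787.10, reverse strand, 157556362 to 157571274). *Blcap* encodes a small membrane protein first described in bladder cancer, and its mRNA is known to be edited. The sequence before *Nnat* is given because *Nnat* was the most abundant of the 8 genes, at chr2:157559828-157560077 (forward strand).
Nnat: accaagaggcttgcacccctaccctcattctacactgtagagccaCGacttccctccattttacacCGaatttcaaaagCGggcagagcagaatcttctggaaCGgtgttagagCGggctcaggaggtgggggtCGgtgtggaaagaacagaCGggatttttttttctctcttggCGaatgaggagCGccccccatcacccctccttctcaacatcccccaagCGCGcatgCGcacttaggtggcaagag
Its 300-base window held 17 CG pairs, and so did that of *Blcap*.

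*Nnat* had 9385 CPM in Embryo 7, the lowest, a median of 13273 CPM and 20806 CPM in Embryo 3, the highest, and 1902 and 2927 CPM in the adults. The lowest embryo was well above both adults. Means of 13845 ± 4051 CPM (SD, n = 7) and 2414 ± 724 CPM (SD, n = 2) gave a log2 fold change of 2.52 (SE 0.46, edgeR adjusted p = 5.4e-04) and 2.46 without Embryo 1 and Embryo 4. After the length and GC correction it was 1.48 (SE 0.33, adjusted p = 0.0031), and *Nnat* was not called.

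*Blcap* ran from 105 CPM (Embryo 6) through a median of 126 to 154 CPM (Embryo 3) in the embryos and was 98.9 and 95.2 CPM in the adults. The groups did not overlap, but the step between them was small. The means were 128 ± 18.02 CPM (SD, n = 7) and 97.0 ± 2.61 CPM (SD, n = 2), and the log2 fold change of 0.39 (SE 0.24, edgeR adjusted p = 0.190) did not pass. It was 0.44 without Embryo 1 and Embryo 4, and its sign turned after the length and GC correction, to -0.21 (adjusted p = 0.346).

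Embryo 3 had the most of both *Nnat* and *Blcap*. Per kb, the log2 ratio of *Nnat* over *Blcap* ran from 7.08 (Embryo 2) to 7.81 (Embryo 3) in the embryos, with a median of 7.48, and was 5.0002 and 5.68 in the adults. *Nnat* exceeded its host in every library, in the embryos by more, with no overlap between the groups. The means were 7.46 ± 0.32 (SD, n = 7) and 5.34 ± 0.48 (SD, n = 2), a difference of 2.12 (4.34-fold), 2.00 without Embryo 1 and Embryo 4 and 1.71 after the length and GC correction. Leaving out Adult 1 gave 1.78 and leaving out Adult 2 gave 2.46. The ratio varied least between embryos in this pair.

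**Figure D4:**
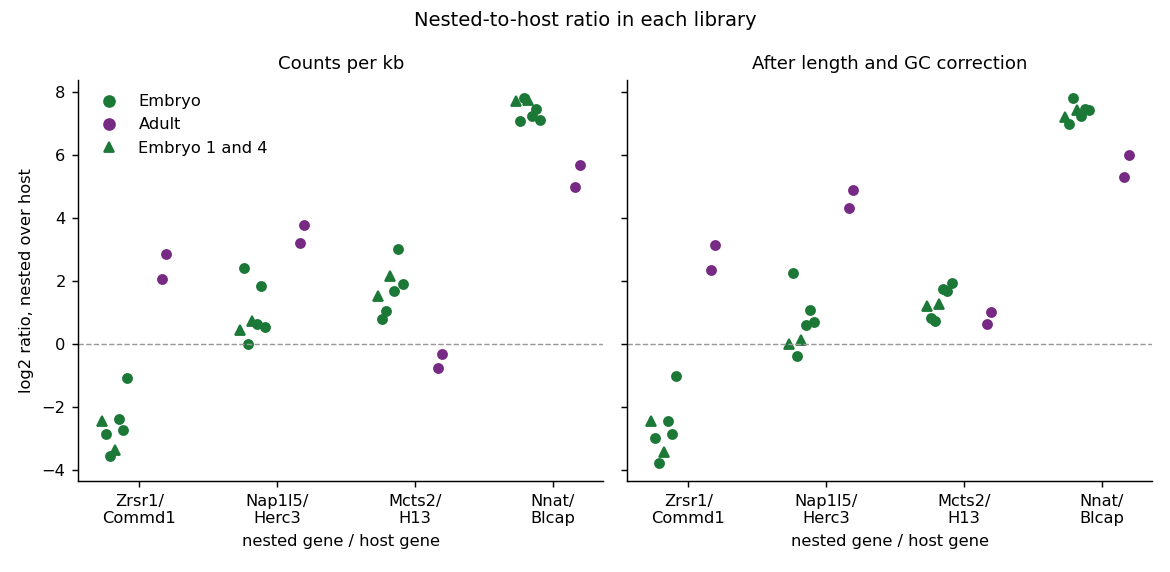
Log2 ratio of each nested gene over its host in each library, per kb of exon (left) and after the length and GC correction (right), with embryos in green, adults in purple and Embryo 1 and Embryo 4 as triangles. The adults lie above the embryos for *Zrsr1*/*Commd1* and *Nap1l5*/*Herc3* and below them for *Nnat*/*Blcap* on both sides, and for *Mcts2*/*H13* the groups are apart only on the left.

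**Figure D5:**
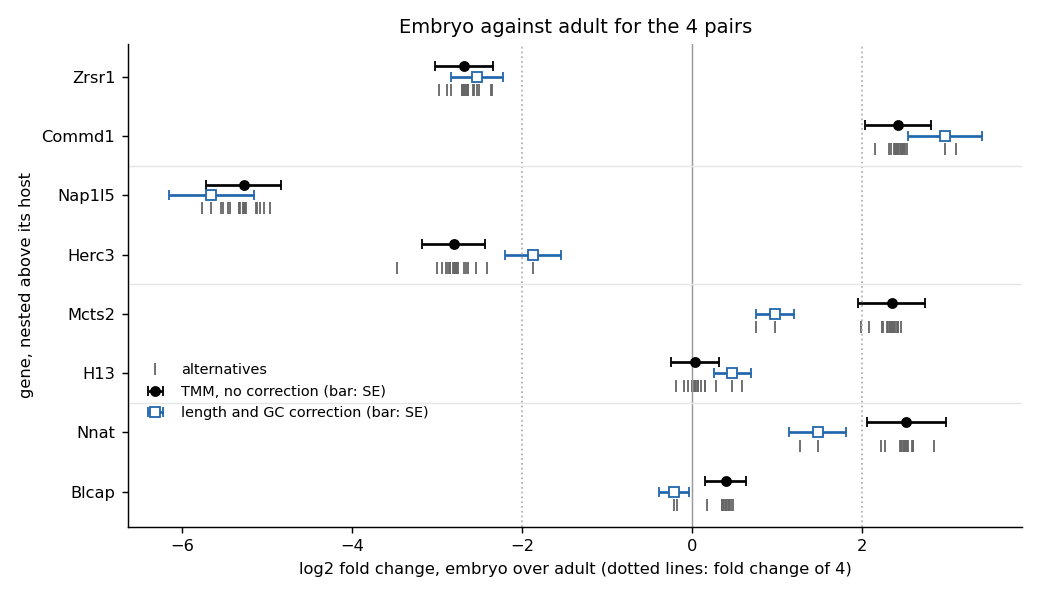
Log2 fold change of each gene, embryo over adult, from edgeR with TMM factors (black circles) and after the length and GC correction (blue squares), each with its SE, and under all 19 alternatives (grey ticks). *Mcts2*, *Nnat* and *Herc3* fall inside the dotted lines of a 4-fold change after the correction, and *Blcap* and *H13* lie on either side of 0 depending on the setting.

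In CPM per kb of exon, the order of levels in the embryo was *Nnat* (7569.6), *Mcts2* (56.0), *Blcap* (41.9), *H13* (16.4), *Commd1* (9.44), *Nap1l5* (3.11), *Zrsr1* (1.55) and *Herc3* (1.51). The ranges of the embryos separated *Nnat* from *Mcts2* and *Blcap* from *H13*, and all other neighbours in this order overlapped. In the adult the order of levels in CPM per kb was *Nnat* (1320.04), *Nap1l5* (121), *Blcap* (31.9), *H13* (16.0), *Mcts2* (11.0), *Herc3* (10.6), *Zrsr1* (9.97) and *Commd1* (1.76). There only *Mcts2* with *Herc3* and *Herc3* with *Zrsr1* overlapped among neighbours. After the length and GC correction *Mcts2* was above *H13* in both adults. That correction follows how each library departs from the mean over all libraries. It does not set different genes against each other within a library, so it does not settle this order. *Nnat* headed both orders, while *Nap1l5* went from the sixth place to the second and *Commd1* from the fifth to the last. By mean CPM among all 19371 genes tested, *Nnat* ranked 3 in the embryo and 12 in the adult.

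Between embryos, the coefficient of variation of CPM was 58.5% for *Nap1l5*, 47.5% for *Herc3*, 35.96% for *Zrsr1*, 35.5% for *Mcts2*, 30.3% for *Commd1*, 29.3% for *Nnat*, 23.4% for *H13* and 14.1% for *Blcap*. Its median was 30.5% over 12739 genes whose mean count reached 100. By the correlation of log2 CPM over all 9 libraries among 12743 other genes, *Zrsr1* was most like *Camsap2* (Pearson r = 0.990), *Nap1l5* most like *Prnp* (0.997), *Mcts2* most like *Cox20* (0.997) and *Nnat* most like *Vill* (0.989). These values are a description over libraries that share the difference between the stages.

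The relatives of the nested genes were read next to them. Of the 3 tested genes of the U2AF family, relatives of *Zrsr1*, none was called, and *Zrsr2*, from which *Zrsr1* was copied, averaged 27.5 ± 8.78 CPM over the embryos (SD, n = 7) and 29.4 ± 1.68 CPM over the adults (SD, n = 2). For *Zrsr2* the log2 fold change was -0.10 (edgeR adjusted p = 0.807), and 0.81 after the length and GC correction (edgeR adjusted p = 0.0297), not called either. At an adjusted p below 0.05 without the fold threshold, *U2af1* (1.73, adjusted p = 2.1e-04) and *U2af2* (0.96, adjusted p = 0.0160) were higher in the embryo, the side opposite to *Zrsr1*. After the correction *U2af1* was at 0.96 and *U2af2* at 0.61, and *Zrsr2* was then also higher in the embryo without the fold threshold. Of the 4 other nucleosome assembly genes, the X-linked *Nap1l2* (-2.69, adjusted p = 3.4e-04) and *Nap1l3* (-2.98, adjusted p = 2.3e-05) were called higher in the adult, as *Nap1l5* was, while *Nap1l1* (0.77) and *Nap1l4* (0.86) were not called. Without the fold threshold *Nap1l1* and *Nap1l4* passed (edgeR adjusted p = 0.0437 and 0.0286), higher in the embryo, the side opposite to *Nap1l5*. After the length and GC correction *Nap1l4* did not pass (0.33, edgeR adjusted p = 0.194).

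*Mcts1*, the source of *Mcts2*, averaged 58.8 ± 17.0 CPM over the embryos (SD, n = 7) and 49.2 ± 1.96 CPM over the adults (SD, n = 2). Its log2 fold change of 0.26 (edgeR adjusted p = 0.486) did not pass and was -0.16 after the length and GC correction, and its partner *Denr* (0.38) and the related *Eif2d* (1.31) were not called. Neuronatin is studied beside the SERCA calcium pumps. Of the 3 tested genes of that list, *Atp2a2*, which encodes the widespread pump SERCA2, was called higher in the adult (-2.20, edgeR adjusted p = 1.1e-04), the side opposite to *Nnat*, and lost the call after the length and GC correction (-1.97), while the small regulators *Pln* and *Sln* were below the filter.

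Among relatives of the hosts, 1 of 11 genes of the COMMD and CCC complex was called, *Commd2* (2.31, edgeR adjusted p = 3.2e-04), higher in the embryo like *Commd1*. Their median log2 fold change was 1.26 and 0.85 after the length and GC correction, beside -0.04 and -0.17 for all genes tested, and after it *Commd10* (2.27) was called as well. *Ccdc93* alone lay on the adult side, not called, at -1.19 (edgeR adjusted p = 0.0035) and at -0.29 after the correction (edgeR adjusted p = 0.291). Of the 4 other HERC ligase genes, *Herc1* (-2.75), *Herc2* (-3.13) and *Herc6* (-3.88) were called higher in the adult like *Herc3*, and *Herc4* (-0.84) was not. After the length and GC correction only *Herc6* of these 4 was called (-2.70). None of the 3 tested relatives of *H13*, *Sppl2a* (-1.42), *Sppl2b* (0.78) and *Sppl3* (0.33), was called, and *Sppl2c* had no count in any library. Of 10 genes of other imprinted overlapping pairs, *Sfmbt2* and *Gm13261* were called, both higher in the adult, and *Gm13261* had no count in 6 of the 7 embryos. After the correction *Sfmbt2* (-1.85) was not called, while *Peg13* (-2.02, before it -1.81 and not called) was called higher in the adult. *Kcnq1ot1*, whose exonic length of 93092 bases is the longest of the listed genes, went from 0.87 (edgeR adjusted p = 0.477) to 3.94 and was called higher in the embryo only with the correction. *Bcl2l1*, a neighbour of *H13* on chromosome 2, was not called (0.84).

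Several lists of cell type markers differed between the stages. Of 11 hormone cell markers 10 were called higher in the adult, and their sum ran from 889 CPM through a median of 1289 to 1939 CPM in the embryos against 152817 and 160422 CPM in the adults, where *Gh* had the highest mean, though *Prl* (62090.1 CPM) exceeded *Gh* (53441 CPM) in Adult 1. *Pax7* had no count in 6 of the 7 embryos.

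Of 5 erythroid markers 4 were called higher in the embryo, and 2 after the length and GC correction, with a median sum of 17348 CPM there and sums of 657 and 1702 CPM in the adults, and *Hbb-y* was the most abundant in the embryos. Of 5 mesenchyme markers 4 were called higher in the embryo, with sums of 578 to 2140 CPM (median 1475) against 547 and 336 CPM, led in the embryos by *Col3a1*. The 3 pituicyte markers, for the posterior lobe, summed to 54.5 to 152 CPM (median 85.4) in the embryos, most in Embryo 2, and to 30.4 and 37.3 CPM in the adults, with *Rax* the most abundant in the embryos. *Rax* and *Nkx2-1* were called higher in the embryo, and *Col25a1*, not called, was at -1.16 (edgeR adjusted p = 0.0469) and at 0.07 after the length and GC correction (adjusted p = 0.899). *Rax* and *Nkx2-1* are also among the 7 tested neural markers and were the only 2 of these called higher in the embryo, while *Map2* was called higher in the adult and not after the length and GC correction, and *Tubb3*, *Stmn2*, *Elavl3* and *Elavl4* were not called. *Neurog2* was below the filter.

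The 4 endothelial markers (sums of 101 to 359 CPM in the embryos, 142 and 88.7 CPM in the adults, led in the embryo mean by *Cdh5*) and the 4 macrophage markers (91.9 to 229 CPM, then 67.9 and 102 CPM, led in the embryo mean by *C1qb*) held no called gene. The 3 skeletal muscle markers summed to at most 4.50 CPM in any library, with 2 called higher in the embryo and 1 after the length and GC correction, *Acta1* the most abundant by group mean and *Myh3* at 0 in both adults. The part of these cell types in the levels of *Zrsr1*, *Nap1l5*, *Mcts2*, *Nnat* and their hosts was not tested.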

How the data were processed

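RNA was measured by directional poly(A) sequencing of 75 bp read pairs. Per the submitters' processing notes, Trimmomatic 0.39 was used by the authors for trimming and STAR 2.7.5b for alignment to mm10. The deposited tables give a count of read pairs for every gene, not normalised, unstranded and by strand. Values here come from the column that fits the directional kit, with the unstranded column as an alternative. All identifiers matched the annotation. Groups are those of the labels. Counts were normalised with TMM and fitted with edgeR 4.0.16 in R 4.3.3, with stage as the only term, on genes whose mean count reached 5. The fit was tried on simulated data. Ratios use merged exonic length. No pair of libraries of the same group agreed within sampling noise (chi-square per degree of freedom of at least 40.7). P-values measure the spread between single animals, with only 2 adults. Alternatives were DESeq2 1.42.0, its size factors, library size alone, other filters and fold thresholds, the unstranded count, the length and GC correction (splines with 4 degrees of freedom), the replicate block and each library left out. Named genes are the 8 members, listed relatives, other overlapping pairs, cell type markers and the gene most like each nested gene. A result on a withheld item is not reported. The members and lists were chosen with earlier results of these data known. Figures were drawn with matplotlib.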

Additional observations from a re-analysis of the deposited data

How the results depend on the processing

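The calls of *Zrsr1*, *Nap1l5* and *Commd1* and their directions held in all 19 alternatives, with log2 fold changes from -2.97 to -2.35, from -5.76 to -4.96 and from 2.15 to 3.10. Genes called numbered 5001, and 8960 with a fold change above 2, 9948 with no fold threshold and 3219 with the replicate block and the length and GC correction together, where 4 of the 8 were called, *Herc3* (-2.42) among them and *Mcts2* not (0.75, edgeR adjusted p = 0.0935). With the length and GC correction 3 of the 8 genes were called, 1412 of all genes were called higher in the embryo and 2818 higher in the adult (2182 and 2819 without it), and the ratio differences were -3.98 for *Nap1l5*/*Herc3*, 0.50 for *Mcts2*/*H13* and 1.71 for *Nnat*/*Blcap*. Leaving out each library in turn moved *Nnat*/*Blcap* between 1.78 and 2.46 and *H13* between -0.10 and 0.15. *H13* was -0.19 with library size alone, where the median of all genes was -0.26. *Blcap* was -0.21 with the correction and -0.18 with the replicate block and the correction. The cause of these changes was not tested. Embryos and adults share only the replicate numbers 1 and 2, whose deviations hardly correlated (r = 0.08 and 0.02), so the numbers do not pair animals. With the replicate block the difference between the stages rests on Embryo 1, Embryo 2 and the 2 adults. In that fit 4236 genes and 5 of the 8 were called, and *Mcts2*, at 1.99, was just below the fold threshold. Spread among adults comes from the difference between 2 animals, and when an adult was left out the remaining library was assumed to vary like the embryos.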
